A study of Mus musculus with 8 samples.

Results

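Crypts of the library titled VEMD6 were compared with crypts of the control library, WT, by setting the FPKM of every gene in one against the other. FPKM are fragments scaled to the length of the gene and to the size of the library. Genes averaging 1 FPKM or more over the 6 crypt libraries were kept, which 10862 of the 16958 genes with values reached. The ratio used throughout is the log2 of VEMD6 to WT after 1 FPKM was added to both, and a gene is called higher or lower when it lay at least 2-fold from WT on that scale. Of the 10862 genes, 379 were under 1 FPKM in WT and passed only through higher values in knockouts, and 92 of these are among the genes called higher.

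The series holds RNA-seq of 8 mouse samples on the C57BL/6 background, 6 of crypts from the intestine and 2 of its stem cells, which were not used here. WT crypts carried Setdb1 with floxed alleles (setdb1fl/fl), and the 5 knockout libraries VEMD2, VEMD3, VEMD4, VEMD6 and VEMD8 are labelled setdb1 iIEC-KO, a knockout driven by Villin-CreERT2, which acts throughout the intestinal epithelium rather than in stem cells alone. All mice, WT littermates included, received 1 oral dose of tamoxifen, 800 mg/kg, at an age of 8 to 10 weeks, and the samples are labelled 8 weeks of age. The study asks how Setdb1 guards genome stability, stem cells and the bowel. The labels do not spell out VEMD, so the number in a library's name is used as a name only. The labels name neither the segment of gut nor the time of collection for a library, and nothing in them speaks of pooled animals. Each group is 1 library, so no value has a replicate error, no difference was tested, and "higher" and "lower" describe these libraries alone.

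SETDB1 methylates histone H3 on lysine and so keeps retroelements and certain genes silent. The intestinal crypt holds stem cells and dividing progenitors, with Paneth cells at its base that secrete antimicrobial peptides. Its daughters become absorptive enterocytes, which digest and take up nutrients, or secretory goblet and enteroendocrine cells, which make mucus and hormones.

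Setdb1, the targeted gene, was at 3.53 FPKM in VEMD6, the lowest of the 6 crypt libraries, and at 9.42 in WT. The other knockouts had 4.95 (VEMD8), 5.49 (VEMD4), 7.03 (VEMD3) and 6.64 (VEMD2). The ratio in VEMD6 was -1.20, and -0.99, just under 2-fold, when each library was rescaled to a median log2 ratio of 0. VEMD6 was the lowest library for 47.2% of all tested genes. For Setdb1 every knockout library lay below WT, and none was listed at 0. These values are per gene, so loss of the floxed exons alone would not be seen in them.

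In VEMD6, 547 genes (5.04%) were at least 2-fold higher than in WT and 885 (8.15%) were at least 2-fold lower. The median ratio over all 10862 genes was -0.23, and after VEMD6 was rescaled to bring that median to 0 the split was 862 higher (7.94%) and 481 lower (4.43%). The ratios below are given as deposited, and counts of list members called higher or lower are given also after that rescaling. The 4 shares above are the base for each such count. Ranks among the 6 libraries and signs of ratios were counted as deposited only. Where a pair of FPKM stands without library names, the first is WT and the second VEMD6. At least 4-fold differences were found for 119 genes upward and 111 downward, and at least 16-fold differences for 17 and 22. The sum of FPKM was 481519 in VEMD6, the lowest of the 6, and 585501 in WT. Markers of leukocytes summed to 152 FPKM in WT and 135 in VEMD6, with 0 of 15 tested genes higher, 0 lower (1 and 0 rescaled) and a median ratio of -0.18. Of 26 stromal markers 3 passed the filter, of which Lyve1, a marker of lymphatic vessels, was higher, at 2.26 FPKM in WT and 13.2 in VEMD6. All 12 tested keratin and epithelial genes lay within 2-fold of WT, and after rescaling 3 of them were called higher.

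**Figure D1:**
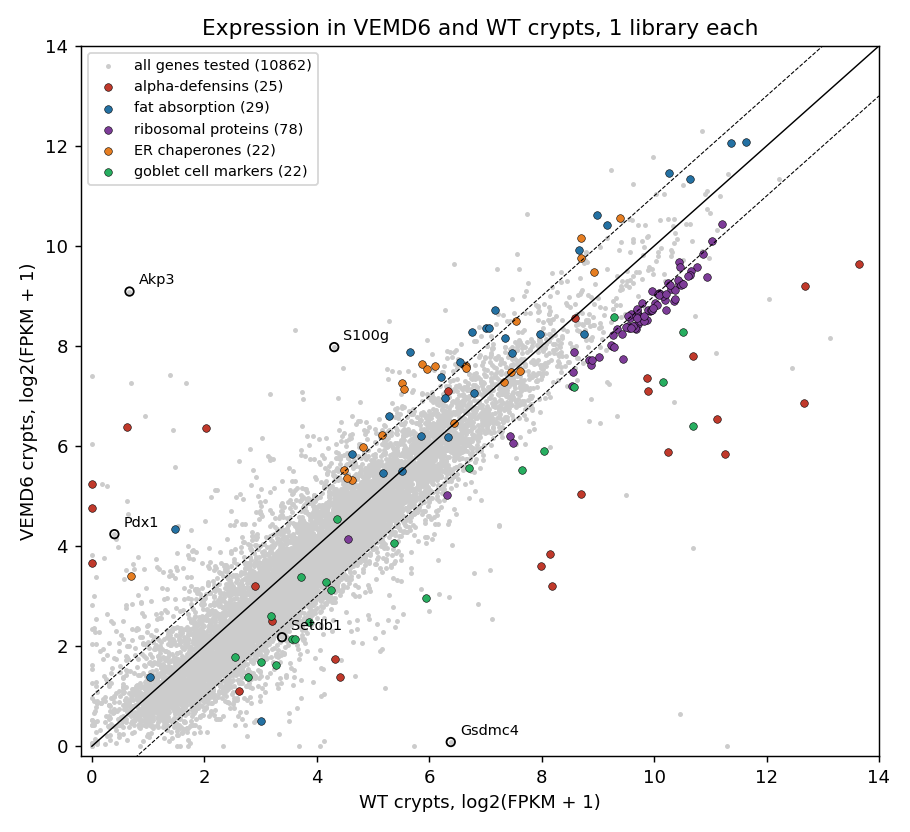
Each point is 1 of the 10862 genes, with log2(FPKM + 1) in WT crypts on the horizontal axis and in VEMD6 crypts on the vertical axis, 1 library each; the dashed lines mark 2-fold. Ribosomal protein genes lie in a band near the lower line, alpha-defensins scatter far to both sides, and Akp3 stands alone at the upper left.

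Many genes of absorptive enterocytes were higher in VEMD6 than in WT, most uniformly those of fat absorption. Of 29 tested genes of fat absorption, 14 were higher and 1 was lower, with a median ratio of 0.81. In 24 of these 29 genes VEMD6 was the highest of the 6 libraries, against 13.9% of all tested genes, and the same held for 15 of 26 transporters and 11 of 19 brush border enzymes. Of 26 tested transporters of sugars, amino acids and ions, 11 were higher and 7 were lower, with a median of 0.83. Of 19 tested brush border enzymes, 6 were higher and 4 were lower, with a median of 0.59. Rescaled, the counts were 15 and 1 for fat, 15 and 7 for transporters and 8 and 2 for the brush border. RNA was taken from whole crypts, so more cells of a type and more RNA per cell cannot be told apart here or in any group below.

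Among brush border enzymes the alkaline phosphatases stood out. Alpi, which encodes the main such enzyme of the intestine, was at 1585 FPKM in VEMD6 and 214 in WT, with 925 in VEMD8, 148 in VEMD4, 43.7 in VEMD3 and 62.0 in VEMD2, a ratio of 2.88 in VEMD6. Its neighbour Akp3, an alkaline phosphatase of the duodenum, was at 0.59 FPKM in WT against 544 in VEMD6, where its ratio of 8.42 was the highest of all genes tested. Akp3 was between 0.11 and 0.54 in VEMD2, VEMD3 and VEMD4 and at 173 in VEMD8, so only VEMD6 and VEMD8 had more than trace levels. The 2 enzymes are close relatives, and reads may be shared between them. Anpep, the aminopeptidase N of the brush border, was at 1015 in WT and 3497 in VEMD6. Tmprss15, the enteropeptidase that activates trypsin, was at 5.42 and 29.7. Ggt1, which breaks down glutathione outside the cell, was at 82.1 and 235. Not all enzymes shared this direction. Lct, the lactase, was at 16.7 FPKM in VEMD6 and 65.1 in WT, with 0.39 in VEMD8, 5.87 in VEMD4, 6.25 in VEMD3 and 24.0 in VEMD2, a ratio of -1.90 in VEMD6. Naaladl1, a peptidase, was at 84.1 and 15.2, and Treh, the trehalase, at 58.9 and 24.9.

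Transporters divided by substrate in no single way. Slc2a2, which carries glucose and fructose out of the enterocyte, was at 19.8 FPKM in WT against 123 in VEMD6 (ratio 2.58), and between 8.67 and 50.0 in the other 4 libraries. Slc6a19, the main carrier of neutral amino acids, was at 94.1 and 263, and Slc46a1, the folate carrier, at 21.99 and 67.2. VEMD6 was at least 2-fold above all other libraries for Slc6a19 and Slc46a1. Slc9a3, a sodium and proton exchanger, was at 23.1 and 73.5. On the other side, Slc6a20a, a carrier of proline, was at 16.6 FPKM in WT against 1.05 in VEMD6 (ratio -3.10). It was also low in the other knockouts, between 0.86 and 4.80. Slc1a1, a carrier of glutamate, was at 16.3 and 1.92, Slc34a2, a phosphate carrier, at 50.1 and 10.1, and Slc28a1, a nucleoside carrier, at 5.79 and 0.91.

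Fat absorption runs from uptake, through rebuilding of triglyceride, to export in chylomicrons, and higher values were found at each step. For uptake, Scarb1, a lipoprotein receptor, was at 1.79 FPKM in WT against 19.3 in VEMD6, and Slc27a4, a fatty acid carrier, at 142 and 423. For rebuilding, Mogat2 was at 107 and 310, Dgat2 at 49.8 and 234, and Gpat3 at 37.9 and 95.6. For export, Mttp, which loads lipid on to apolipoprotein B, was at 570.3 and 1378, and Apoc2, the cofactor of lipoprotein lipase, at 506 and 1574. Each of these 7 genes was highest in VEMD6 of all 6 libraries. Cd36, a fatty acid receptor, was the one gene of the list called lower, at 7.09 FPKM in WT against 0.41 in VEMD6, and it was between 0.21 and 0.57 in every other knockout too. Rbp2, the retinol carrier of the enterocyte, was at 1856 in WT and 5062 in VEMD6.

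Fatty acid oxidation was higher in fewer genes, 7 of 26 tested and 0 lower (8 and 0 rescaled), with a median ratio of 0.24. Pdk4, which turns glucose use down in favour of fat, was at 0.67 FPKM in WT, between 0.64 and 0.91 in VEMD2, VEMD3 and VEMD4, 11.6 in VEMD6 and 3.39 in VEMD8. Ehhadh, an enzyme of peroxisomal oxidation, was at 34.2 and 76.0. Acadl, a mitochondrial dehydrogenase, was at 61.6 and 276, with values between 98.7 and 337 in the other knockouts. Ppara, the nuclear receptor that governs many of these genes, was at 7.11 and 7.59.

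**Figure D2:**
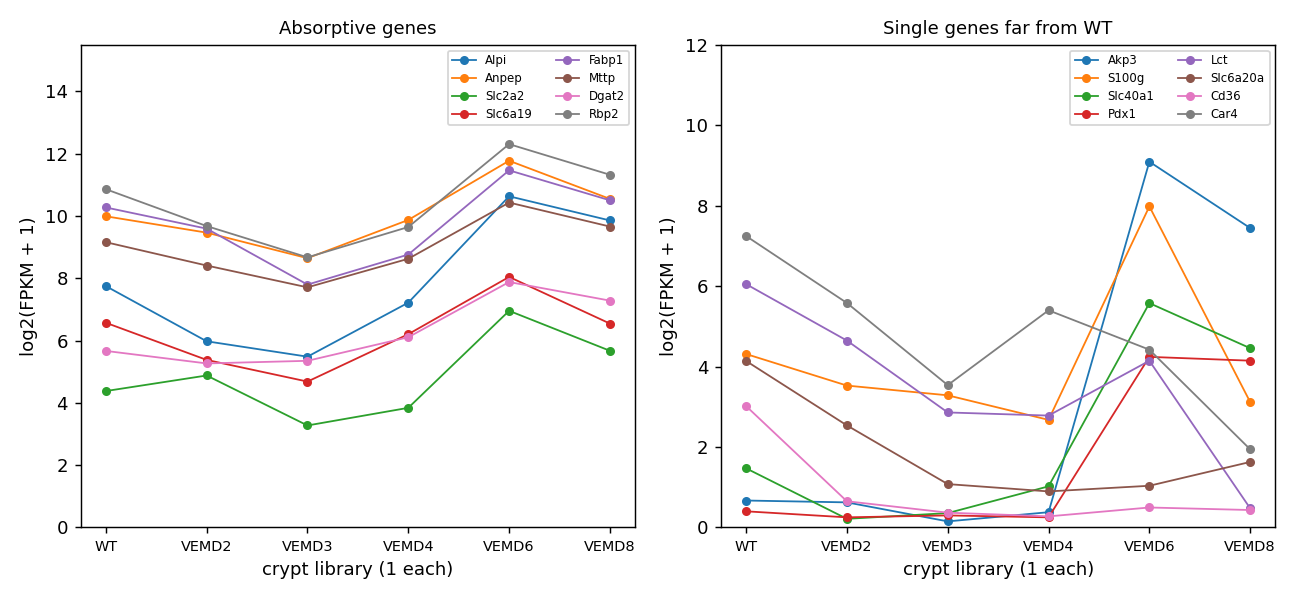
Lines join log2(FPKM + 1) of a gene across the 6 crypt libraries, 1 each, with absorptive genes on the left and single genes with large ratios on the right. On the left VEMD6 is the highest library for each of the 8 genes; on the right Akp3, S100g, Slc40a1 and Pdx1 are high in VEMD6, while Lct, Slc6a20a, Cd36 and Car4 are below WT in every knockout.

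Genes that mark the tip of the villus, the layer that crypt preparations should leave behind, had a higher summed level beside the absorptive groups. Of 14 tested, 4 were higher and 0 lower (9 and 0 rescaled), with a median ratio of 0.83. Their summed level was 7571 FPKM in VEMD6 and 4851 in WT, with 3358 in VEMD8, 4844 in VEMD4, 2214 in VEMD3 and 1460 in VEMD2. Most of the sum in WT and VEMD6 came from Apoa4, at 3196 in WT and 4304 in VEMD6, with a ratio of 0.43. Apoa4 and Creb3l3 are also in the list of fat absorption, so the groups overlap. Ada, the adenosine deaminase of the villus tip, was at 291 in WT and 700.1 in VEMD6, Krt20, a keratin of mature enterocytes, at 775 and 1458, and Klf4, a transcription factor of differentiated cells, at 58.6 and 98.5. Their part in the absorptive values was not tested.

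Genes that handle iron and calcium, a task of the upper small intestine, were higher in part. Of 16 tested genes of mineral transport, 7 were higher and 0 were lower (8 and 0 rescaled), with a median ratio of 0.65. S100g, the calcium carrier protein calbindin-D9k, was at 251 FPKM in VEMD6 and 18.8 in WT, with 7.67 in VEMD8, 5.38 in VEMD4, 8.74 in VEMD3 and 10.5 in VEMD2, a ratio of 3.67 in VEMD6. It was high in VEMD6 alone, at least 2-fold above every other library. Slc40a1, ferroportin, the iron exporter, was at 1.77 in WT and 46.7 in VEMD6 (ratio 4.11), between 0.16 and 1.03 in VEMD2, VEMD3 and VEMD4, and at 20.9 in VEMD8. Heph, the ferroxidase that works with ferroportin, was at 39.3 and 115, and Cybrd1, the reductase of dietary iron, at 0.40 and 3.18. Atp2b1, the calcium pump of the basal membrane, was at 19.4 and 64.8, Slc30a10, a manganese exporter, at 6.79 and 31.1, and Slc39a14, an importer of zinc and manganese, at 21.3 and 55.7. Vdr, the vitamin D receptor that governs several of these genes, was at 88.3 in WT and 73.2 in VEMD6.

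Transcription factors of gut identity were mostly near WT, with 3 of 23 tested higher and 3 lower (5 and 2 rescaled). Either count is 13.0%, against 5.04% higher and 8.15% lower of all genes. The median ratio was -0.05, which is 0.20 after rescaling. Pdx1, the factor of the duodenum and pancreas, was the exception in size. It was at 0.32 FPKM in WT, between 0.19 and 0.23 in VEMD2, VEMD3 and VEMD4, 17.9 in VEMD6 and 16.7 in VEMD8 (ratio 3.84 in VEMD6). Onecut2 was at 6.03 and 14.5, and Prdm1, a repressor active in the immature gut, at 2.66 and 7.35. Cdx1, a factor of the mid and hind gut, was at 99.1 and 36.9, and its relative Cdx2 at 108 and 55.9. Hnf4a, a main driver of enterocyte genes, was at 246 and 279.7, and Gata4, of the upper small intestine, at 52.8 and 59.3. Among genes of the ileum, Fabp6, the bile acid binding protein, was listed at 0 in VEMD6 and was at 2.27 in WT, with 0.38 in VEMD8, 5.54 in VEMD4, 8.19 in VEMD3 and 51.7 in VEMD2. Slc10a2, the ileal bile acid carrier, was at 0.65 and 1.12. The labels give no gut segment, and its part in these values was not tested.

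Paneth cell genes were far lower in VEMD6. Of 19 tested Paneth genes that are not defensins, 14 were lower and 0 were higher (13 and 0 rescaled), with a median ratio of -2.64, and VEMD6 was the lowest library in 14 of 19, against 47.2% of all genes. Lyz1, the Paneth lysozyme, was at 489.9 FPKM in VEMD6 and 4233 in WT, with 896 in VEMD8, 1875 in VEMD4, 4289 in VEMD3 and 6844 in VEMD2. Ang4, an antimicrobial ribonuclease, was at 724 in WT and 31.3 in VEMD6 (ratio -4.49), and Mmp7, the protease that activates defensins in mice, at 151 and 20.1. Itln1, a lectin, was at 2199.6 and 232, and the chemokine Ccl6 at 137 and 4.83. Sox9, a transcription factor that Paneth cells need, was at 8.74 and 3.83, and Wnt3, their Wnt ligand, at 2.26 and 0.28. Clps, a lipase cofactor found in Paneth cells and pancreas, was at 135 and 10.4.

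Alpha-defensins are small antimicrobial peptides of the Paneth granule. The 28 genes matched to such a symbol made up 6.33% of the summed FPKM in WT and 0.635% in VEMD6. Any alpha-defensin among the 42 gene IDs without a symbol is missing from these shares. The matched genes lie side by side on chromosome 8 between 21025545 and 21735471 (GRCm38). Of 25 tested, 16 were lower, 5 were higher and 4 were neither (16 and 6 rescaled), with a median ratio of -2.79. Defa31 was at 116 FPKM in VEMD6 and 6478 in WT, with 440.3 in VEMD8, 1256 in VEMD4, 3538 in VEMD3 and 6594 in VEMD2, a ratio of -5.80 in VEMD6. Defa17 was at 12801 in WT and 792 in VEMD6, Defa35 at 2459 and 56.2, and Defa5 at 2211 and 92.0. These genes were lower in VEMD4 as well, and lowest in VEMD6. A gene of the table that was not matched to a symbol had the lowest ratio of all tested genes, -11.30. It is in none of the counts and shares of this list.

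Against that direction, 5 alpha-defensins were higher in VEMD6 and low elsewhere, at most 5.33 FPKM. Defa43 was at 0.55 FPKM in WT against 82.6 in VEMD6 and at most 0.47 in the other 4 libraries. Defa42 was at 3.07 and 81.1, and between 0 and 2.92 in the others. Defa2 was at 36.9 in VEMD6 and 1.11 in VEMD8 and was listed at 0 in the 4 others. Defa3 was listed at 0 in WT and was at 26.1 in VEMD6 and 5.33 in VEMD3. Defa21 was listed at 0 in every library but VEMD6, where it was at 11.8. Each of the 5 thus had its highest value in VEMD6. Defa43, Defa2, Defa3 and Defa21 reached the filter of 1 FPKM only through that value, so their rank in VEMD6 is no separate result. Their values are uncertain, because near copies in the cluster can share reads. The transcript of Defa2 is 98.8% identical to that of Defa32, which was at 18.9 in WT and 2.35 in VEMD6. Defa21 is 99.3% identical to Defa22, at 414 and 31.9, and Defa3 is 96.6% identical to Defa17. No transcript was matched for Defa43 and Defa42, so theirs were not compared. How the authors' counting treated fragments that match several genes is not given in the sources used here, and its part in these values was not tested.

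**Figure D3:**
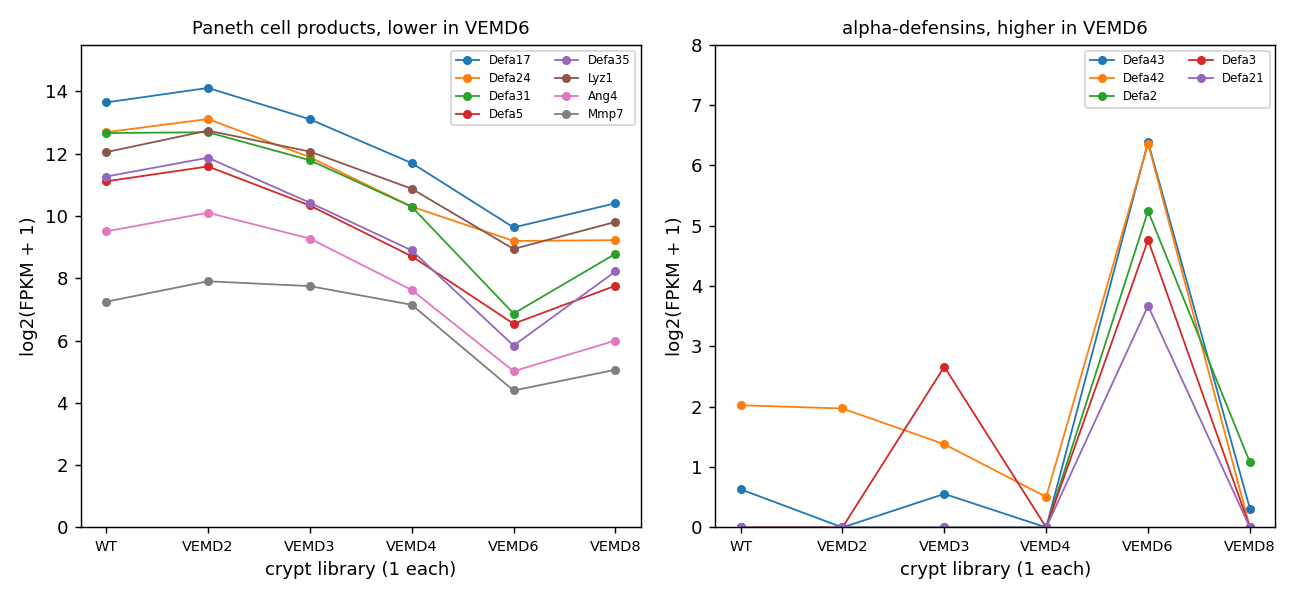
Lines join log2(FPKM + 1) of a gene across the 6 crypt libraries, 1 each. On the left, 5 alpha-defensins and the Paneth genes Lyz1, Ang4 and Mmp7 are lowest in VEMD6; on the right, on an axis of its own, the 5 alpha-defensins called higher peak in VEMD6.

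The promoters of these near copies are alike too, and they are shown because genes with opposite ratios share the same letters. The lines give 56 bases of the gene's strand around the TATA box from the RefSeq promoter table (GRCm38.p6), with TATAAA in capitals. The positions on chromosome 8 are chr8:21594524-21594579 (minus strand) for Defa43, chr8:21456576-21456631 (minus strand) for Defa42, and, on the plus strand, chr8:21378446-21378501 for Defa2, chr8:21528961-21529016 for Defa32, chr8:21025474-21025529 for Defa21, chr8:21162206-21162261 for Defa22 and chr8:21191500-21191555 for Defa31.
Defa43: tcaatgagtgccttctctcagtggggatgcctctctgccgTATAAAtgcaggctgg
Defa42: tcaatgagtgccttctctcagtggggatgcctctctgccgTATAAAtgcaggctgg
Defa2: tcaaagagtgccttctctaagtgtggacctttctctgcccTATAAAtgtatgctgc
Defa32: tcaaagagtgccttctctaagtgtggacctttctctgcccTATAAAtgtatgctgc
Defa21: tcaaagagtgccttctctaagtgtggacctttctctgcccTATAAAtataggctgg
Defa22: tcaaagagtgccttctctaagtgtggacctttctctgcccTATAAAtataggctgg
Defa31: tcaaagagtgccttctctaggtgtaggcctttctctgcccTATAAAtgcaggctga
The windows of Defa43 and Defa42, both higher, are identical over 56 of 56 bases. The window of Defa2 (ratio 5.24) is identical to that of Defa32 (ratio -2.57), and that of Defa21 (ratio 3.67) to that of Defa22 (ratio -3.66). Defa43 and Defa31 share 44 of 56 bases (78.6%). TATAAA on the gene's strand was found in 15 of 16 alpha-defensin promoters in the table (93.8%) and in 2494 of all 32851 promoters (7.59%), and such a match describes letters only.

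Goblet cell genes were mostly lower. Of 22 tested, 16 were lower and 0 were higher (14 and 0 rescaled), with a median ratio of -1.39. VEMD6 was the lowest library in 20 of 22, against 47.2% of all tested genes. Zg16, a lectin secreted with mucus, was at 83.7 FPKM in VEMD6 and 1659 in WT, with 107 in VEMD8, 2249.6 in VEMD4, 532 in VEMD3 and 1095 in VEMD2, so that VEMD6 and VEMD8 were the lowest. Tff3, the trefoil peptide, was at 1462 in WT and 309 in VEMD6, Clca1, a protease of mucus, at 199.9 and 45.1, and Spink4 at 1143 and 155. Muc2, the gel-forming mucin, was at 104 and 45.97. Of the transcription factors of the secretory fate, Atoh1 was at 10.7 and 3.42, and Spdef at 13.5 and 4.56. The Notch pathway decides between absorptive and secretory fate. In a list of its genes and of secretory fate factors, 5 of 13 tested were lower and 0 were higher (4 and 0 rescaled), with a median of -0.68. The 5 are Hes1, Nrarp and Dll4 of the pathway, and the fate factors Neurog3 and Atoh1, which is also in the goblet list. Notch1, Notch2, Rbpj, Maml1 and Jag1 lay within 2-fold of WT. The Notch target Hes1, a repressor of Atoh1, was at 29.7 and 13.2, Nrarp, another target, at 16.2 and 3.76, and the ligand Dll4 at 5.29 and 1.76. The Notch targets Hes1 and Nrarp and the secretory factors Atoh1 and Spdef were thus all lower.

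All 19 tested enteroendocrine genes lay below WT, as did 7154 of all 10862 genes. All 19 also lay below the median ratio of all genes, -0.23. At least 2-fold lower were 15 of the 19 (14 rescaled), against 8.15% of all genes, and the median ratio was -1.56. Another 11 listed genes did not reach a mean of 1 FPKM. Gcg, the precursor of glucagon-like peptides, was at 1.24 FPKM in VEMD6 and 35.9 in WT, with 0.67 in VEMD8, 23.4 in VEMD4, 83.6 in VEMD3 and 68.1 in VEMD2. Gip, the incretin of K cells, was at 121 in WT and 29.2 in VEMD6, Cck, cholecystokinin, at 33.9 and 10.9, and Sst, somatostatin, at 28.1 and 7.50. Nts, neurotensin, was at 15.8 and 1.01, and Pyy, peptide YY, at 4.05 in WT and listed at 0 in VEMD6. Ghrl, ghrelin, had a ratio of -0.98 and Sct, secretin, of -0.58. Neurog3, the factor that starts the endocrine fate, was at 2.63 and 0.46. The values of VEMD8 were lower still for Gcg, Gip, Cck, Sst and Nts. Chga and Chgb, granins of the hormone granule, were at 34.8 and 60.5 in WT and at 10.2 and 15.7 in VEMD6.

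Some stem cell, Wnt and cell cycle genes were lower, and most of each group lay within 2-fold of WT. Of 24 tested stem cell genes, 10 were lower and 0 were higher, with a median ratio of -0.74, and 4 were lower after rescaling. Lgr5, the receptor that marks crypt base stem cells, was at 0.41 FPKM in VEMD6 and 2.10 in WT, with 0.32 in VEMD8, 1.07 in VEMD4, 0.71 in VEMD3 and 1.60 in VEMD2. Olfm4, an abundant stem cell protein, was at 574 in WT and 154 in VEMD6, and it was lower still in VEMD4, at 129. Smoc2 was at 38.9 and 17.9, and Ascl2, the transcription factor of stem cell identity, at 3.55 and 1.65. Of 12 tested Wnt targets of growth, 5 were lower and 0 were higher (3 and 0 rescaled), against 8.15% and 5.04% of all genes. Axin2, Ephb2, Ephb3, Sox9, Tnfrsf19 and Cd44 are also in the stem cell list, so the groups overlap. Sox9 is in the Paneth list as well. Myc was at 44.0 FPKM in WT, between 46.5 and 53.1 in VEMD2, VEMD3 and VEMD4, 13.2 in VEMD6 and 18.2 in VEMD8. Ccnd1 and Ccnd2 are D-type cyclins, which start the cell cycle; Ccnd1 was at 104 in WT and 30.1 in VEMD6, and Ccnd2 at 54.4 and 16.2. Axin2, a feedback inhibitor of the Wnt pathway, was at 18.5 and 8.37.

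Of 38 cell cycle genes, all tested, 12 were lower and 0 were higher, with a median ratio of -0.79, and 3 were lower after rescaling. As deposited, VEMD6, which had the lowest sum of FPKM, was the lowest library for all 38, against 47.2% of all tested genes. This rank was not counted after rescaling. Stmn1, a microtubule regulator of dividing cells, was at 282 FPKM in WT against 62.0 in VEMD6, Tk1, the thymidine kinase of S phase, at 50.2 and 13.7, and Cdk1, the mitotic kinase, at 34.1 and 15.03. Among DNA repair genes 5 of 28 tested were lower (17.9%, against 8.15% of all genes) and 0 were higher. Rescaled, 2 were lower and 1 was higher, which is near the shares of all genes, 4.43% and 7.94%. The lowest ratios were those of Rad51b, at 2.92 and 0.54, and Lig1, the DNA ligase of replication, at 33.0 and 12.7. Partners of SETDB1 gave 3 lower of 18 (16.7%), Setdb1 included, and 0 after rescaling. Trim28, the corepressor that brings SETDB1 to zinc finger proteins, was at 59.2 and 28.6.

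Ribosomal protein genes were lower as a block. All 78 tested lay below WT, with ratios from -1.71 to -0.41 and a median of -1.19, and 64 were called lower. Of all 10862 genes 7154 lay below WT, with a median ratio of -0.23, and all 78 lay below that median too. After rescaling 15 were called lower and the median was -0.92. VEMD6 was the lowest of the 6 libraries for all 78, against 47.2% of all tested genes. The group held 13.0% of the summed FPKM in WT and 7.16% in VEMD6. Rpl23a was at 664 FPKM in VEMD6 and 1972 in WT, with 1079 in VEMD8, 1473 in VEMD4, 1799 in VEMD3 and 1535 in VEMD2. Rpl34 was at 694 in WT and 212 in VEMD6, and its processed copy Rpl34-ps1 was listed at 0 in WT and was at 168 in VEMD6 and 279 in VEMD8, and the pair may share reads. Short transcripts were lower in general: over 5 classes of transcript length the median ratio of all genes was -0.44 in the shortest and -0.02 in the longest, and the share called lower was 15.47% and 2.92%. The median also rose from the shortest to the longest class in the other knockouts, from -0.33 to 0.18 in VEMD8. The length used is that of the longest transcript annotated for a gene, which need not be the one expressed. By that measure ribosomal protein genes have a median length of 1076 bases, against 3295 for all tested genes. Genes of the respiratory chain have a median length of 1046, and 0 of 79 tested were higher or lower (1 and 0 rescaled), with a median ratio of -0.39. The part of transcript length in the ribosomal values was not tested further.

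**Figure D4:**
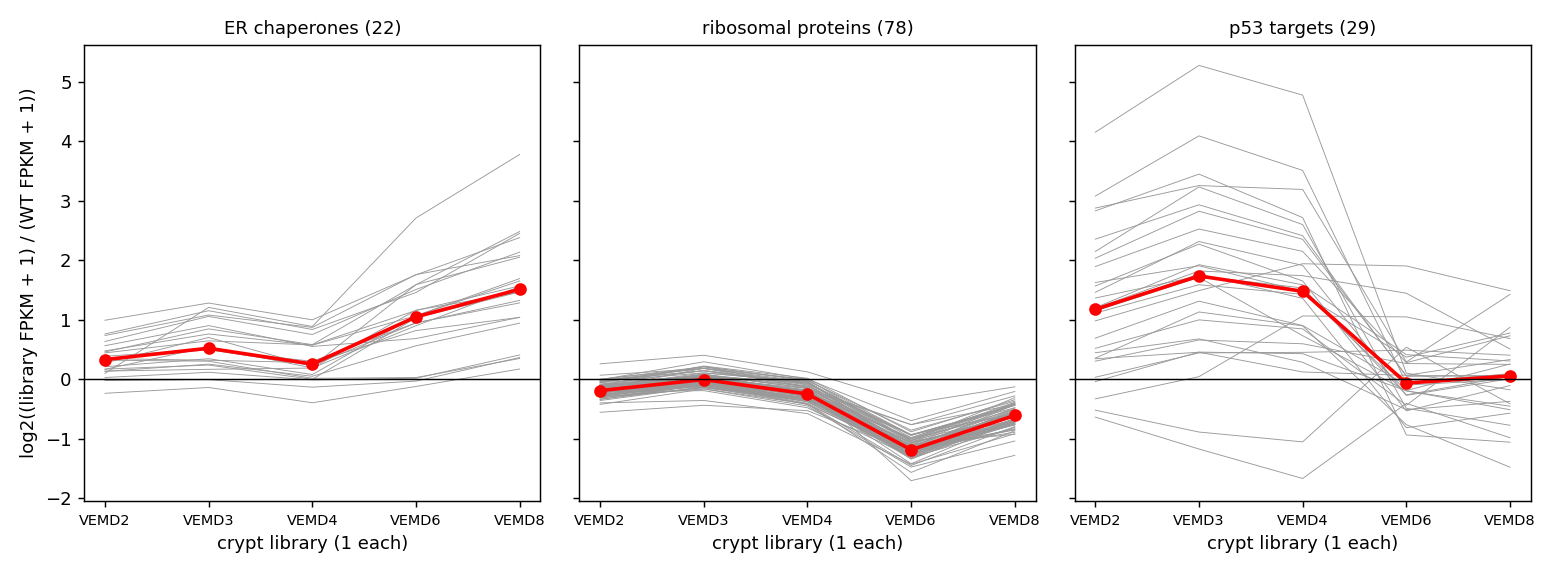
Grey lines are the genes of a list and red points their median, as log2((library FPKM + 1) / (WT FPKM + 1)) for the 5 knockout libraries, which share 1 WT library. In VEMD6, 20 of the 22 chaperones of the endoplasmic reticulum lie above WT and all 78 ribosomal proteins below it. Of all 10862 genes 3700 lie above WT and 7154 below. The median of p53 targets is -0.07 in VEMD6 and above 1 in VEMD2, VEMD3 and VEMD4.

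Many chaperones of the endoplasmic reticulum, where secreted proteins fold, were higher. When unfolded proteins accumulate there, the sensors ATF6 and IRE1 switch on chaperone genes, many through a promoter motif called the ER stress element. Of 22 tested genes, 12 were higher and 0 were lower (16 and 0 rescaled), with a median ratio of 1.05. Hspa5, the chaperone BiP, was at 1143 FPKM in VEMD6 and 416 in WT, with 2277 in VEMD8, 742 in VEMD4, 924 in VEMD3 and 704 in VEMD2. Derl3, a channel component for the removal of misfolded proteins, was at 0.61 in WT and 9.52 in VEMD6 (ratio 2.71), Creld2 at 57.9 and 198, Hyou1 at 44.7 and 153, and Herpud1, also of the removal pathway, at 45.8 and 139.6. For each of these 5 genes VEMD8 was higher than VEMD6. Xbp1, the factor that IRE1 activates by splicing, was at 86.0 and 86.8, and this value does not separate its spliced form. Targets of ATF4, the other arm of this response, gave 1 higher and 1 lower of 19 tested (4 and 1 rescaled), with Chac1 at 1.53 and 6.80.

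The motif was searched as CCAAT, then 9 bases of any kind, then CCACG, on both strands in the first 250 bases of each RefSeq promoter. The motif holds a CCAAT box within it. It was found in 37 of 32851 promoters (0.113%) and in 9 of the 20 chaperone genes with a promoter in the table. The lines show it for 5 of them, 4 of which were called higher, with the conserved ends of the motif in capitals, 69 bases on the gene's strand of GRCm38.p6. They lie at chr10:75893217-75893285 (plus strand) for Derl3, chr15:88819495-88819563 (plus strand) for Creld2, chr2:34772000-34772068 (plus strand) for Hspa5, chr8:84847050-84847118 (minus strand) for Calr and chr11:50325775-50325843 (minus strand) for Canx.
Derl3: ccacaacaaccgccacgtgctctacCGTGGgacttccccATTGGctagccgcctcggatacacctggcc
Creld2: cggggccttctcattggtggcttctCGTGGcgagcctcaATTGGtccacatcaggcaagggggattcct
Hspa5: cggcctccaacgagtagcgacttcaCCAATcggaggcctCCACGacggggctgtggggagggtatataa
Calr: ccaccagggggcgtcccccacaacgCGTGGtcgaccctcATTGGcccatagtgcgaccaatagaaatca
Canx: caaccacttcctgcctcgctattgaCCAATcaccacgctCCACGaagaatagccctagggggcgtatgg
Derl3, Creld2 and Calr carry it in the reverse direction. Of the 9 genes with the motif 6 were higher, with a median ratio of 1.07, and of the 11 without it 5 were higher, with a median of 0.95. Calr, calreticulin, was at 674 FPKM in WT against 1501 in VEMD6, while Canx, its membrane-bound relative calnexin, was at 173 and 177 and holds the motif as well. Outside the list 6 tested genes hold the motif, and 3 of them were higher. These were Xlr3a at 0.69 and 10.6, Ero1b, an oxidase of protein folding, at 3.80 and 10.1, and Alg12, of glycan assembly, at 8.64 and 18.3. A match is a description of letters and does not show binding.

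**Figure D5:**
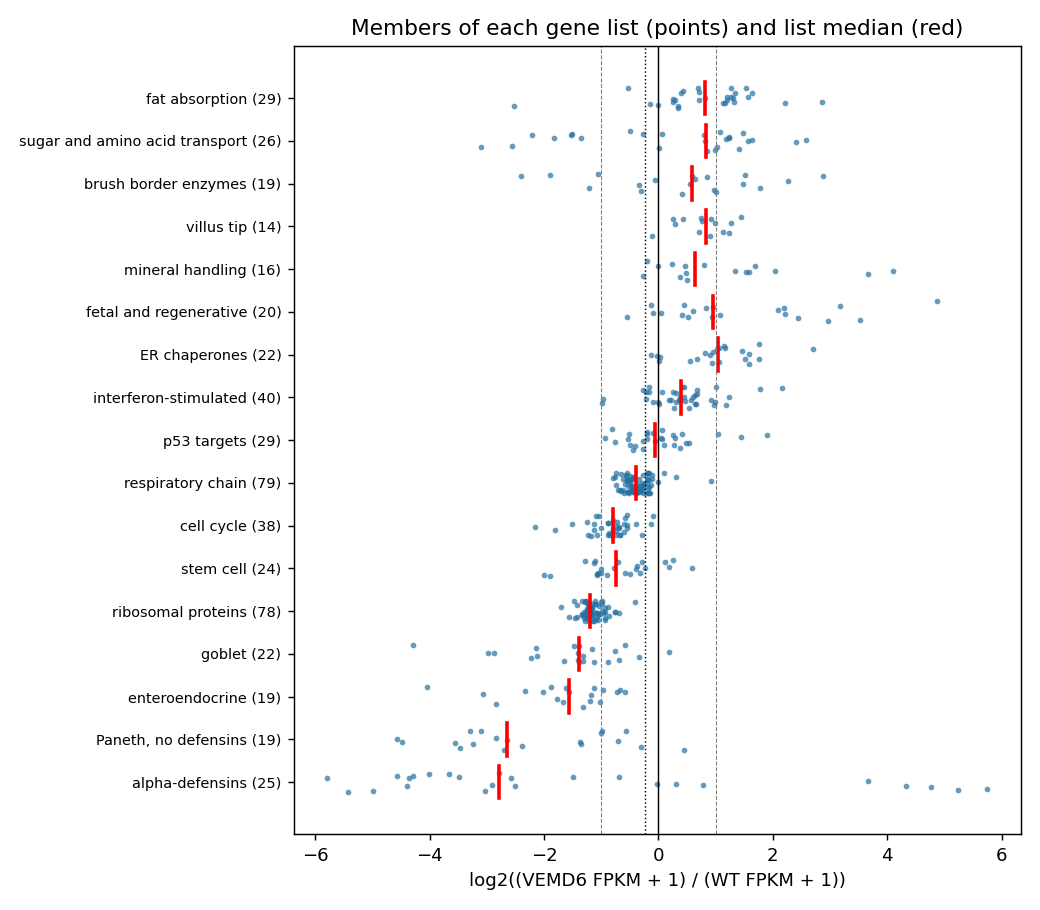
Each blue point is a tested gene of the named list (number tested in brackets), placed by log2((VEMD6 FPKM + 1) / (WT FPKM + 1)), and red bars are list medians; dashed lines mark 2-fold and the dotted line the median of all genes, -0.23. Absorptive and chaperone lists have medians right of the dotted line, and ribosomal, goblet, enteroendocrine and Paneth lists have medians beyond -1.

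Genes of the fetal and regenerating epithelium were partly higher, 9 of 20 tested with 0 lower (12 and 0 rescaled) and a median ratio of 0.95. Clu (clusterin), a marker of revival stem cells, was at 14.9 FPKM in VEMD6 and 0.38 in WT, with 9.47 in VEMD8, 77.2 in VEMD4, 40.6 in VEMD3 and 4.55 in VEMD2. Ly6a, known as Sca-1, was at 37.3 in WT, 162 in VEMD6 and between 275 and 1075 in the other knockouts, so VEMD6 had the lowest value of the 5. Areg, amphiregulin, a ligand of the EGF receptor, differed from these in its order: it was at 121 in VEMD6 and 12.5 in WT, with 64.2 in VEMD8, 99.0 in VEMD4, 65.8 in VEMD3 and 39.8 in VEMD2. Ereg, epiregulin, another such ligand, was at 0.52 and 6.04, and the receptor Egfr at 4.56 and 4.14. Dusp6, a phosphatase that the pathway induces to restrain itself, was at 20.6 and 88.1, and Errfi1, an inhibitor of the receptor, at 11.4 and 29.5. Of 16 tested genes of EGF signalling 6 were higher and 0 lower, with the same counts after rescaling.

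Most targets of p53 lay near WT in VEMD6. Of 29 tested, 3 were higher (10.3%, against 5.04% of all genes) and 0 were lower. The median ratio was -0.07, or 0.07 after rescaling, against 1.48 in VEMD4, 1.73 in VEMD3 and 1.17 in VEMD2. Ccng1, cyclin G, was at 22.7 FPKM in VEMD6 and 21.98 in WT, with 22.8 in VEMD8, 121 in VEMD4, 174 in VEMD3 and 116 in VEMD2. Phlda3, an inhibitor of AKT, was at 0.27 in WT, between 21.6 and 48.2 in VEMD2, VEMD3 and VEMD4, and at 0.36 in VEMD6. Bax, which opens mitochondria in apoptosis, was at 58.7 and 32.9. The 3 genes called higher were Plk3 at 4.75 and 20.5, Cdkn1a, the cell cycle inhibitor p21 and also a gene of the villus tip list, at 87.6 and 239.95, and Pmaip1, also known as Noxa, at 17.02 and 36.2.

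Interferon-stimulated genes were higher in few members, 5 of 40 tested and 0 lower (8 and 0 rescaled), with a median ratio of 0.40 against 2.06 in VEMD4. Those 5 are 12.5%, against 5.04% of all genes. Oasl1, a regulator of the antiviral response, was at 179.95 FPKM in VEMD6 and 39.3 in WT, with 118 in VEMD8, 212 in VEMD4, 54.5 in VEMD3 and 28.1 in VEMD2. Rsad2, viperin, was at 6.54 and 24.9, and Isg15, a ubiquitin-like modifier, at 72.0 and 146. Of 19 tested genes induced by interferon gamma, 5 were higher and 5 were lower (5 and 3 rescaled). Gbp4, a guanylate-binding GTPase, was at 131 FPKM in VEMD6 and 7.98 in WT, with 40.6 in VEMD8, 46.5 in VEMD4, 23.4 in VEMD3 and 10.4 in VEMD2, at least 2-fold above every other library. In a window of 1 Mb on chromosome 5, from 105000001 to 106000000, 6 of 8 tested genes were higher: Gbp4, Gbp6, Gbp8, Gbp9, Gbp10 and Lrrc8b. Among all genes tested 5.04% were higher, and this window was chosen because it held the most genes called higher. Gbp2 and Gbp3, which lie outside that window, were lower, at 16.8 and 5.07 in WT and 7.03 and 1.49 in VEMD6. Members of this family are similar in sequence and may share reads.

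In the machinery of necroptosis, a lytic form of cell death, 0 of 17 tested genes were higher and 0 were lower (1 and 0 rescaled), with a median ratio of 0.17. Zbp1, a sensor of nucleic acids in Z form, was at 64.9 FPKM in WT, 133 in VEMD4 and 99.0 in VEMD6. Mlkl, which opens the membrane, was at 20.5 and 34.3, and its kinase Ripk3 at 40.8 and 45.98. Tnf was at 1.19 and 2.15. Gasdermins, the pore proteins of pyroptosis, included the lowest ratio of any gene named here. Gsdmc4 was at 0.06 FPKM in VEMD6 and 82.5 in WT, a ratio of -6.30, and was listed at 0 in VEMD8 and at 0.06 in VEMD4, 0.23 in VEMD3 and 5.19 in VEMD2. Gsdmc2, at 51.8 in WT, and Gsdmc3, at 15.6, were listed at 0 in VEMD6. These 3 genes are near copies of each other and were below WT in every knockout. Gsdmd, the widely expressed member, was at 116 and 165.

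Genes at least 2-fold beyond all 5 other crypt libraries were counted to show where VEMD6 stood alone, and there were 53 above (0.488%) and 26 below (0.239%). The same shares were 0.626% and 0.571% for WT, 0.672% and 0.0552% for VEMD4, 0.212% and 0.23% for VEMD8, 0.046% and 0.0921% for VEMD2, and 0.00921% in either direction for VEMD3. Besides Akp3, Slc40a1, S100g, Gbp4 and the 5 alpha-defensins, the highest ratios were those of Cyp1a1 and Slc37a2. Cyp1a1, an oxidase induced through the aryl hydrocarbon receptor, was at 95.5 FPKM in VEMD6 and 0.93 in WT, with 21.6 in VEMD8, 5.80 in VEMD4, 11.3 in VEMD3 and 1.19 in VEMD2. Slc37a2, a sugar phosphate carrier, was at 0.54 in WT, 29.0 in VEMD6 and at most 6.72 elsewhere. Leap2, an antimicrobial peptide and antagonist of the ghrelin receptor, was at 20.1 and 79.0. Among the genes below all others, besides defensins, were Pla2g2a, a secreted phospholipase of Paneth cells, at 56.5 FPKM in WT, between 37.5 and 118 in the other knockouts and 7.79 in VEMD6, Nupr1, a stress-induced nuclear protein, at 29.5 and 4.80, Erdr1 at 109.6 and 10.1, Fxyd3, a regulator of the sodium pump, at 40.6 and 15.8, Tmem254c at 32.8 and 4.47, and the goblet and Paneth product Spink4. Without VEMD8 among the others, the counts were 194 above and 203 below, so most genes that stood 2-fold apart from the other 4 libraries did not stand 2-fold apart from VEMD8.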

How the data were processed

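RNA of mouse intestinal crypts was sequenced on a BGI-500 instrument, per the labels' protocols, with 1 library per group. The deposited values are FPKM per gene, which the authors computed before deposit. HISAT2, featureCounts, edgeR and the builds GRCm38 and mm10 are named per the submitters' processing notes; the roles and settings of these tools are not given in the sources used here. Values have 2 decimals. Whole reads could not be recovered from them, so the depth is unknown and no counting interval or floor is given.

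Gene IDs were named from RefSeq, where 16916 of the 16958 IDs with values matched a symbol and 42 did not. Another 3760 of 20718 lines hold no value and were left out. 2 columns of a table of retroelement families match no sample by name and were not used. Genes averaging 1 FPKM or more over the 6 crypt libraries were kept, 1 FPKM was added, and log2 ratios of VEMD6 to WT were taken; a difference of 2-fold was called. With 1 library a group no test was made, and none of the values has an error. Leaving out VEMD8, pseudocounts of 0.1 and 5, no filter or one of 5 FPKM, a filter on VEMD6 and WT alone, and 2 rescalings were the alternatives. The counting of calls was checked on simulated data.

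The comparison and the 64 gene lists were chosen with earlier results of these data known. Genes named are Setdb1 and genes drawn from the 30 highest and 30 lowest ratios at a mean of at least 5 FPKM. Others come from 15 on either side among those 2-fold beyond all other libraries. Up to 8 members of a list by size of ratio were added, with its hormones, receptors, ligands and transcription factors. Not every gene of the rule is described above. Among those left out are Eno1b (ratio 6.57), Gml2 (5.07), Gml (4.92), Ly6d (4.88) and Zfp972 (4.72), and on the lower side Pmp22 (-4.03) and Enpp7 (-3.36). Eno1b was at 0.62 FPKM in WT, 153 in VEMD6 and between 96.7 and 245 in the other knockouts. It may share reads with its relative Eno1, which was not tested. Outside this rule, Fabp1, Mttp, Muc2, Ripk3, Gsdmd, Ccng1, Phlda3, Calr, Hsp90b1, Canx, Car4, the defensins compared by sequence and the genes named for a promoter motif or a chromosome window were chosen after their values were seen. Promoters are from RefSeq (GRCm38.p6). Transcript lengths are those of the longest transcript of a gene in GENCODE M21, matched for 10818 genes (99.6%). Python 3.11.15, numpy 2.4.6, pandas 2.3.3, matplotlib 3.10.9 and biopython 1.88 were used.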

Additional observations from a re-analysis of the deposited data

Results flagged for a closer look

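The median ratio of 9 gene lists lay on the opposite side of WT in VEMD6 and in at least 1 other knockout library, with both medians at least 0.5 from 0. Brush border enzymes had a median of 0.59 in VEMD6 and of -0.65 in VEMD2, -1.45 in VEMD3 and -0.53 in VEMD4. Transporters of sugars and amino acids had 0.83, against -0.64, -1.39 and -0.81 in the same 3 libraries. Genes of fat absorption had 0.81, against -0.68 in VEMD2 and -1.13 in VEMD3, and villus tip genes had 0.83, against -0.72 in VEMD2. Paneth genes other than defensins had -2.64 in VEMD6 and 0.50 in VEMD2. Enteroendocrine genes had -1.56, against 0.77 in VEMD3, and stem cell genes -0.74, against 0.56 in VEMD3. Wnt targets of growth had -0.69, against 0.50 in VEMD2, 1.03 in VEMD3 and 0.79 in VEMD4. The stem cell and Wnt lists share members, as do those of fat absorption and the villus tip. Lectins of the Reg family had -1.11 in VEMD6 and 1.83 in VEMD8. All of these ratios share 1 WT library, each knockout is 1 library, and none of the differences was tested.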

How the results depend on the processing

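Of 1149 single genes of the lists and the naming rule, none that lay 2-fold or more from WT changed sign under another pseudocount or rescaling. No list median that far from WT took the opposite sign under any alternative, but that of stomach and colon genes, -1.15, was 0 with no filter, and counts of calls shifted. Genes called lower, 885, numbered 1364 with 0.1 FPKM added in place of 1, 357 with 5 FPKM added, 481 after rescaling to a median ratio of 0 and 560 after rescaling every library to the same sum. Genes called higher, 547, numbered 691, 317, 862 and 964 under the same settings. Genes 2-fold above all other libraries, 53, numbered 127 and 91 under the 2 rescalings, and 194 without VEMD8. Genes 2-fold below all others, 26, numbered 126 and 12 with 0.1 and 5 FPKM added and 13 after rescaling to the median, and 203 without VEMD8. The ratio of Setdb1, -1.20, was -0.76 with 5 FPKM added and -0.99 after rescaling. The filters on low values kept every count within 1.5 times. Among 61 list medians, at most 3 shifted by over 1.5 times under any one setting, among them Paneth genes, at -1.82, and enteroendocrine genes, at -0.85, with 5 FPKM added. Of these medians 8, which lay between -0.15 and -0.01, became positive after either rescaling, those of p53 targets and of identity factors among them.

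No paired analysis was possible because WT and VEMD6 are single libraries. The limits follow from that: none of the differences has a replicate, a library's mouse, gut segment and day cannot be told apart from its genotype, and the depth behind each FPKM is unknown. VEMD6 and the other knockouts are set against the same WT library.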

Other observations

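Enzymes that handle foreign compounds differed by family in VEMD6; pairs of FPKM give WT first. Of 23 tested glutathione S-transferases, 8 were higher and 3 were lower (9 and 1 after rescaling); Gsta1 was at 36.9 FPKM in WT against 184 in VEMD6, and Gstm2 at 12.3 against 3.64, and near copies among the Gsta and Gstm genes may share reads. Of 13 tested cytochromes P450 of drug metabolism, 2 were higher and 1 was lower (4 and 1 after rescaling), with Cyp2b10 at 28.2 and 75.2 and Cyp3a25 at 31.8 and 3.47. VEMD6 was the only knockout with Cyp2b10 above WT. Sult6b2, a sulfotransferase, was at 171 FPKM in VEMD6 and 1.61 in WT, with 393 in VEMD8, 10.3 in VEMD4, 3.06 in VEMD3 and 1.13 in VEMD2. Papss2, which makes the sulfate donor of such enzymes, was at 38.2 and 361, and Gulo, the last enzyme of vitamin C synthesis, at 2.20 and 152.

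Selenoproteins were lower in 5 of 20 tested genes and higher in 1 (4 and 2 after rescaling). Selenop, which carries selenium in plasma, was at 646 FPKM in WT against 96.1 in VEMD6, and every other knockout was also low, between 21.1 and 138. Genes of antigen presentation on MHC class II, which gave 0 higher and 0 lower of 9 tested, kept closer to WT in VEMD6 than in VEMD8: the median ratio was -0.38 and -1.72. Ciita, their master regulator, was at 10.9 in VEMD6, against 14.5 in WT and 3.70 in VEMD8. Of the 5 small proline-rich proteins tested, Sprr1a, at 5.72 and 6.45, lay within 2-fold of WT and 4 were higher, with Sprr2b at 0.54 and 2.44, Sprr2a3 at 603 and 2941, Sprr2a1 at 188 and 920.1 and Sprr2a2 at 147 and 747; the Sprr2a genes are near copies. Among lectins of the Reg family, Reg3b, an antibacterial protein, was at 389 FPKM in VEMD6 and 1687 in WT, with 9734 in VEMD8, 2051 in VEMD4, 434 in VEMD3 and 525 in VEMD2, so VEMD6 was the lowest library and VEMD8 the highest.

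The pair of Rpl34 and its copy, described above, had a counterpart. Hmga1b was listed at 0 in WT and was at 64.6 in VEMD6 and 68.6 in VEMD8, while Hmga1, a chromatin protein, was at 231 in WT and 79.8 in VEMD6. Which of the pair the reads came from cannot be told from FPKM.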
